A study of Homo sapiens with 6 samples.

Results

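Genes of human chromosome 4 were compared between parental MDA-MB-231 cells and MDA-MB-231-D3H2LN cells, abbreviated MDA231-LN. The members were chosen by level, as the chromosome 4 genes with a mean CPM (a library's counts over their sum, scaled to a common total) of at least 1 across all 6 libraries. The rule was met by 497 genes, of 2704 listed on this chromosome and 61541 in the whole table, and 1699 of the 2704 had no count in any library. The chromosome itself was singled out with its upward shift already known, so its counts and medians are given as descriptions, with no test over the members. Just inside the minimum lay CXCL2 with a mean of 1.006 CPM and KCNIP4 with 1.018. Just outside lay C4orf54 with 0.989 and RAB33B-AS1 with 0.981.

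The study sequenced bulk RNA from 3 libraries of each line. MDA-MB-231 is an aneuploid line of triple-negative breast carcinoma, and MDA231-LN is a commercial derivative of it, known as a luciferase-bearing line that was grown out of a metastatic lymph node of a mouse. Both lines were grown in high-glucose DMEM medium with 10% fetal bovine serum and without any treatment named in the labels. Each condition is a single cell line, so what differs between the lines cannot be told apart from what differs between any pair of separately grown stocks. Separate cultures behind the 3 libraries of each line are not stated in the labels, and p-values then measure only the spread between these libraries, which may be technical. In bulk RNA, fewer cells of a type and less RNA per cell cannot be told apart.

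Chromosome 4 carries FGFR3 and NSD2 near the end of its short arm. Its long arm holds the receptor genes around KDR, the cluster of CXC chemokine genes, and beside it the genes of the epidermal growth factor (EGF) family ligands EREG, AREG and BTC. Further along the long arm lie genes of the cell cycle, such as CCNA2 and MAD2L1, and the large cadherin genes FAT4 and FAT1. Most of its genes have no common function, and a change shared along a chromosome is therefore read from position and not from pathway.

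The parental libraries held 16461578 to 19171017 counted fragments and the MDA231-LN libraries 17661542 to 18882719. Of the 14176 genes that were tested in all, 31.6% were higher and 31.2% lower in MDA231-LN, with adjusted p-values under 0.05 (edgeR's quasi-likelihood test with Benjamini-Hochberg adjustment over all genes tested). The first principal component held 86.5% of the variance. VIM, CD44, KRT8, KRT18, EGFR and AXL, genes known in this line, each lay at 314 CPM or more in every library. Their log2 fold changes were 0.869 for VIM, 0.921 for CD44, 0.732 for AXL, -0.329 for KRT18 and -0.946 for EGFR. These genes passed the threshold, while KRT8 (-0.074) did not. The hormone receptor gene ESR1 was at 0 to 0.428 CPM in the parental line and 0.666 to 1.11 CPM in MDA231-LN (log2 fold change 2.40, edgeR adjusted p = 0.00403), and PGR had 1 count in 1 library. The receptor gene ERBB2, which had been listed with them as low or absent, lay between 87.6 and 95.4 CPM over all libraries (edgeR adjusted p = 0.915). The leukocyte gene CD3E and the erythrocyte gene HBB had 0 counts, the leukocyte gene PTPRC stayed between 0.305 and 0.697 CPM, and the fibroblast gene DCN stayed at or below 0.103 CPM. The fibroblast gene LUM was at 0 to 0.0609 CPM in the parental line and 0.768 to 0.874 CPM in MDA231-LN. The stromal gene PDGFRB went the other way, from 4.75 to 8.56 CPM down to 2.55 to 3.33 CPM (log2 fold change -1.21, edgeR adjusted p = 7.32e-05). Of the endothelial genes, PECAM1 lay between 6.91 and 10.9 CPM over all libraries, whereas CDH5 stayed at or below 0.111 CPM. The part of these genes in the results was not tested.

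The sequence just before the start of a gene gives the reader the setting of the members at both ends of the scale. Promoters of 250 bases before the start were matched by symbol in RefSeq (GRCh38.p14) for 398 of the 497 members. Printed are STK32B, NAA11, FHDC1 and EREG, which stood far above the medians of their windows, NAA15 and SMARCA5, abundant genes that moved with the chromosome, and LIMCH1, an abundant gene that fell. Each run is the gene's own strand, 5′ to 3′, and capitals mark CG pairs (CpG).
STK32B (chr4:5051230-5051479, plus strand): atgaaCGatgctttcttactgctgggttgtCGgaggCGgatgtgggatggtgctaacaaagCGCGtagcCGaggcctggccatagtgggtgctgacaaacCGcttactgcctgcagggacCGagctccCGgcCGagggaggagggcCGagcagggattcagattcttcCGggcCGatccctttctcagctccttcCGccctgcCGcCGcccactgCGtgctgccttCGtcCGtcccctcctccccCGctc
NAA11 (chr4:79326062-79326311, minus strand): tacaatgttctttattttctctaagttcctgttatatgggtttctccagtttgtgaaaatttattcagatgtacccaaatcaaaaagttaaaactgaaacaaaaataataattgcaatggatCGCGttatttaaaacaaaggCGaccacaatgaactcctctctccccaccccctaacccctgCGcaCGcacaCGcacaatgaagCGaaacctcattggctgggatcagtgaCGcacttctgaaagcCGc
FHDC1 (chr4:152936073-152936322, plus strand): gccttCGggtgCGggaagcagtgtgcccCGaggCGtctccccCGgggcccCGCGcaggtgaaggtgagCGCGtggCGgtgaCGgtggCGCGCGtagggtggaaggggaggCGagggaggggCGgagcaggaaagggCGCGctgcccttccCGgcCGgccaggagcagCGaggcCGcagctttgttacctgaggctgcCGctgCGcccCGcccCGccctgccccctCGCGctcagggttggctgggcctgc
EREG (chr4:74364895-74365144, plus strand): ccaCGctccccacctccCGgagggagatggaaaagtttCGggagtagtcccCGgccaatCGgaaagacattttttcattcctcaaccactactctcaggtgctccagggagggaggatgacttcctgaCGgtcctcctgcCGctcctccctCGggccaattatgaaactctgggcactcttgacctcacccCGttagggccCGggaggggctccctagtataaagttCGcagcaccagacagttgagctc
NAA15 (chr4:139301255-139301504, plus strand): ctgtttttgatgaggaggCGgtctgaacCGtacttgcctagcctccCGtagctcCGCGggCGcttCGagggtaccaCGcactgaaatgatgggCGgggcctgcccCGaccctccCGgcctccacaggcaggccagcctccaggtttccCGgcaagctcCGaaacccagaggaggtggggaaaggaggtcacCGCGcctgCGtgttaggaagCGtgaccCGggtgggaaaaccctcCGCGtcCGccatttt
SMARCA5 (chr4:143513452-143513701, plus strand): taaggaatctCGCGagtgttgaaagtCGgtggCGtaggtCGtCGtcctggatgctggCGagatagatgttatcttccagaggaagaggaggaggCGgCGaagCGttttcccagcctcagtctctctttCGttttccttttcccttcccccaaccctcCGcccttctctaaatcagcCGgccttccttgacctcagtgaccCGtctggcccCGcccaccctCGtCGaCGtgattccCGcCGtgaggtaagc
LIMCH1 (chr4:41359357-41359606, plus strand): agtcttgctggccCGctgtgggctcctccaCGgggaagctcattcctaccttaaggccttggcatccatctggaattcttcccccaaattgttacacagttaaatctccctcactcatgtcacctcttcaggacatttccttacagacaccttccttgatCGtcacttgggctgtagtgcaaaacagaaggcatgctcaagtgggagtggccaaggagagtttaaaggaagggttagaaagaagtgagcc

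The printed runs held from 3 to 28 CpG pairs, beside a median of 11 over all RefSeq promoters of this length. The run before FHDC1 held 28 CpG pairs and that before STK32B held 20. The run before EREG held 11 and that before NAA11 held 9. The runs before NAA15 and SMARCA5 held 21 and 20, and the run before LIMCH1 held 3. A promoter was counted as CpG-rich with an observed-to-expected CpG ratio over 0.6 and a GC content over 50%. By that count 306 of the 398 matched members (76.9%) were CpG-rich, beside 44.8% of the 35116 RefSeq promoters of the same length. The members were chosen by level and the RefSeq promoters were not, so these shares are not like for like. Genes of other chromosomes above the same minimum were not compared. The share was 66.7% (20 of 30) among matched members raised at least 4-fold, 60.9% (14 of 23) among those raised 2-fold to 4-fold, 81% (136 of 168) among those raised less than 2-fold, 77.3% (109 of 141) among those that did not pass and 75% (27 of 36) among those lowered. CpG richness is a description of these windows and says nothing of any factor bound there.

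Chromosome 4 gave a larger share of the counted fragments in every MDA231-LN library than in any parental library. The share was 2.26%, 2.27% and 2.30% in parental libraries 1, 2 and 3, a mean of 2.28% ± 0.018 (SD, n = 3). It was 2.87%, 2.86% and 2.84% in the MDA231-LN libraries, a mean of 2.86% ± 0.012 (SD, n = 3), and the lines did not overlap. The ratio of the means was 1.255. With 3 libraries against 3, a two-sided exact permutation test cannot go below p = 0.1, so no test of this share is given.

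The increase did not come from the strongly changed genes alone. Without the 80 members that changed at least 2-fold in either direction, the ratio of the shares was 1.245, from 2.19% ± 0.017 (SD, n = 3) to 2.73% ± 0.012 (SD, n = 3). The 73 members raised at least 2-fold made up 0.0162% of the counted fragments in the parental line and 0.0848% in MDA231-LN. None of the 100 most abundant genes of the table lay on chromosome 4 (0 of 100), and without those 100 the ratio was 1.261.

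Of the 497 members, 267 rose in MDA231-LN and 45 fell at an adjusted p under 0.05 in edgeR's quasi-likelihood test, and 185 did not pass. That is 53.7% higher and 9.05% lower, beside 31.6% and 31.2% of all genes tested. Among genes on other chromosomes with a mean CPM of at least 1, 30.6% were higher and 34.6% lower. The lowest MDA231-LN value exceeded the highest parental value for 277 members (55.7%, beside 33.8% of all genes tested) and the reverse held for 53 (10.7%, beside 32.8%). All 497 members passed the filter on low counts. For 47 members the parental mean was under 1 CPM, so they entered the list only through MDA231-LN, and for 3 the MDA231-LN mean was under 1 CPM.

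Most of the called members moved by less than 2-fold. A rise of less than 2-fold was called for 194 members (39%, beside 18.6% of all genes tested and 19.8% of genes on other chromosomes above the same minimum) and a fall of less than 2-fold for 38 (7.65%, beside 23.7%). A rise of at least 2-fold was called for 73 members (14.7%, beside 13% of all genes tested and 10.8% of those on other chromosomes), and a fall of at least 2-fold for 7 (1.41%, beside 7.53%). A rise of at least 4-fold was called for 42 (8.45%, beside 6.78% and 5.02%) and a fall of at least 4-fold for 4 (0.805%, beside 1.96%). Rises of each size were thus more frequent on chromosome 4 than on the other chromosomes above that minimum, and the gap in percentage points was widest for rises of less than 2-fold.

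The median log2 fold change (MDA231-LN over parental) of the members was 0.27, which is 1.21-fold, with a middle range from 0.03 to 0.63. It was 0.02 over all genes tested and -0.02 over genes of other chromosomes with a mean CPM of at least 1. The change was above 0 in 377 of 497 members (75.9%, beside 51.1% of all genes tested), and in 304 of these it lay between 0 and 1. After leaving out the members that changed at least 2-fold, the median of the other 417 was 0.21. The 10054 genes of other chromosomes chosen the same way had a median of -0.04.

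The shift was seen in each library by itself. The members' median deviation from their parental means, on the log2(CPM + 0.5) scale, was -0.01, 0.01 and 0.02 in parental libraries 1, 2 and 3. It was 0.27, 0.28 and 0.26 in MDA231-LN libraries 1, 2 and 3. The gap between the lines was thus far larger than the spread within either, and the lines did not overlap. Genes of other chromosomes deviated by -0.02 in each MDA231-LN library.

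**Figure D1:**
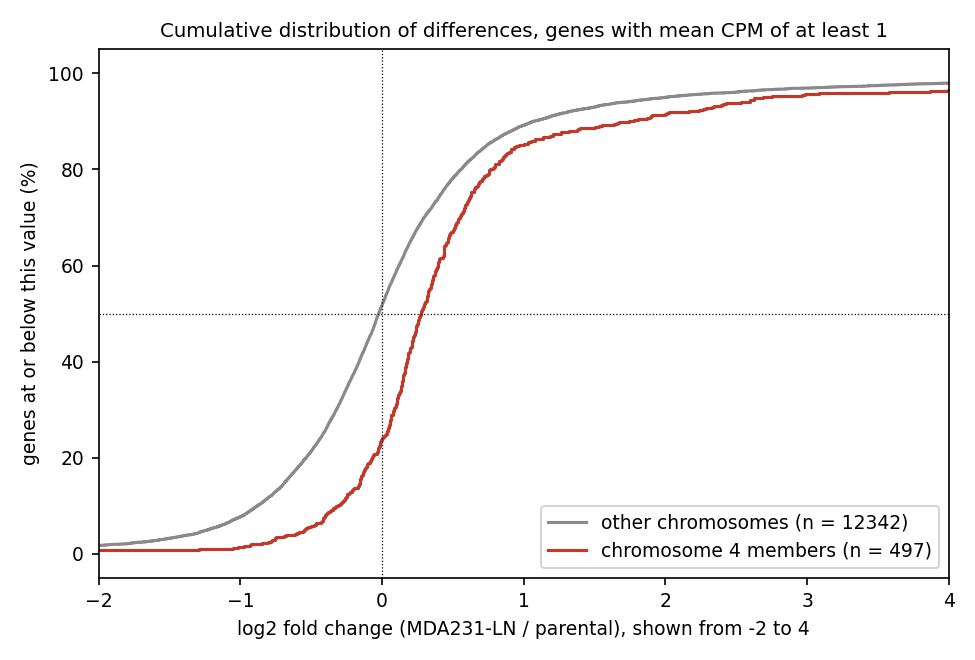
Cumulative share of genes (vertical axis, percent) by log2 fold change of MDA231-LN over parental (horizontal axis), for chromosome 4 members and for genes of other chromosomes with a mean CPM of at least 1. The curve of the members lies to the right of the other over its middle, with medians of 0.27 and -0.02.

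At every level of abundance more members lay above 0 than below it, and strong rises were mostly those of weakly counted genes. Among the 66 members with a mean of at least 100 CPM the median was 0.21, 42 rose, 5 fell and 0 rose 2-fold or more, and 84.8% lay above 0, beside 41.1% of the 2348 genes of other chromosomes at that level. Among the 208 members from 20 to 100 CPM the median was 0.25 and 80.3% lay above 0, beside 40.9%. Among the 110 members from 5 to 20 CPM the median was 0.27 and 63.6% lay above 0, beside 52.5%. Among the 113 members from 1 to 5 CPM the median was 0.65, but genes of other chromosomes at that level also had a raised median of 0.37. Of the 73 members raised at least 2-fold, 45 had a mean from 1 to 5 CPM and 8 a mean from 20 to 100 CPM.

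By position, the median was above 0 in each of the 19 windows of 10 Mb (genes placed by their start), from 0.13 between 40 and 50 Mb to 0.45 between 20 and 30 Mb. The order of the windows depended on single libraries. The window from 40 to 50 Mb had a median of 0.01 without parental library 1, 0.20 without parental library 3 and 0.06 without MDA231-LN library 2. The window from 120 to 130 Mb had 0.05 without parental library 2 and 0.08 without MDA231-LN library 3, and the window from 60 to 70 Mb had 0.31 without MDA231-LN library 1. The window from 20 to 30 Mb stayed the highest only without parental library 2 or MDA231-LN library 2. It had 0.34 without parental library 3, where the window from 70 to 80 Mb was the highest with 0.43. Without parental library 1 or MDA231-LN library 1 or 3 the highest was the window from 90 to 100 Mb, with 0.43, 0.47 and 0.47. Members that rose outnumbered members that fell in all 19 windows. After the members that changed at least 2-fold were left out, all 19 medians were still above 0, from 0.05 to 0.36. In windows of 5 Mb, 34 of 35 medians were above 0. The short arm (starts below 50 Mb, 155 members) had a median of 0.28 and the long arm (342 members) 0.27. Members on the plus strand had a median of 0.26 and members on the minus strand 0.29.

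**Figure D2:**
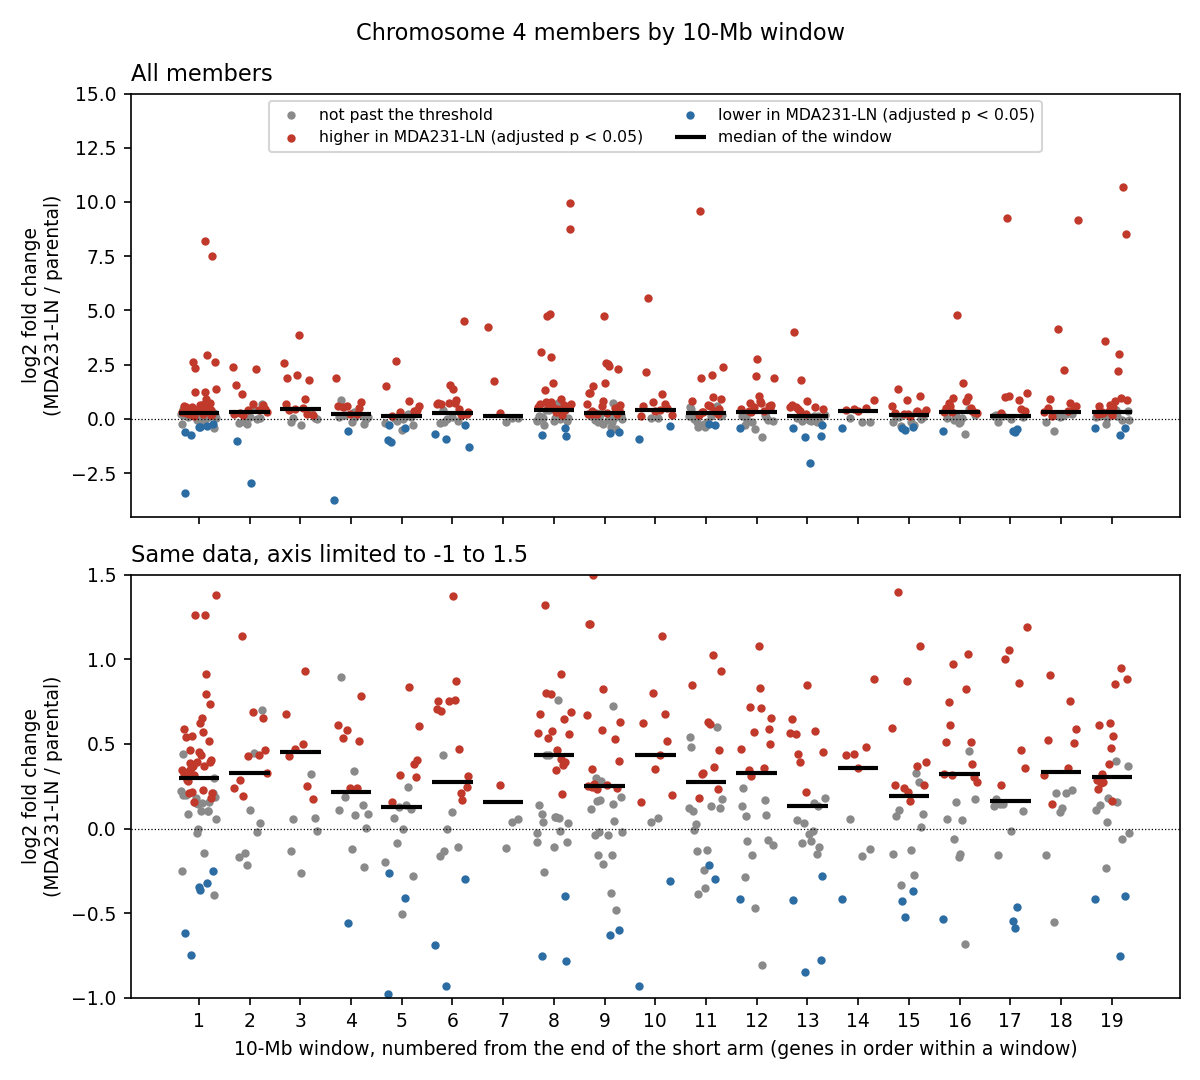
Each point is a chromosome 4 member, placed by 10-Mb window from the end of the short arm (horizontal axis, windows 1 to 19), with its log2 fold change on the vertical axis, and black bars are window medians. The upper panel shows all members and the lower panel only those between -1 and 1.5, and all 19 bars lie above 0 while rises of at least 4-fold occur in 16 of the windows.

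Most other chromosomes had windows on both sides of 0. Of 282 windows of 10 Mb with at least 5 genes on the other chromosomes, 128 (45.4%) had a median above 0, and 90% of these medians lay between -0.86 and 0.56. The window medians of a chromosome shared a sign on 2 of 23 chromosomes, namely 4, where all were above 0, and 20, where all were below. Chromosome 14 came close, with 8 of 9 medians above 0 and the lowest at -0.04. The range of the window medians was 0.32 on chromosome 4, beside a median of 0.90 over the other chromosomes, and it was smaller on 3 chromosomes (16, 17 and 22). Chromosome 4 was not the most raised: its median ranked 3, after chromosome 19 with 0.39 and chromosome 14 with 0.29. The share of raised genes was 55.4% on chromosome 19 and 54.4% on chromosome 14, beside 53.7% on chromosome 4. The share of lowered genes on chromosome 4, 9.05%, was the smallest of the 23, followed by 15.1% on chromosome 14. These ranks compare 1 pair of cell lines and carry no test.

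**Figure D3:**
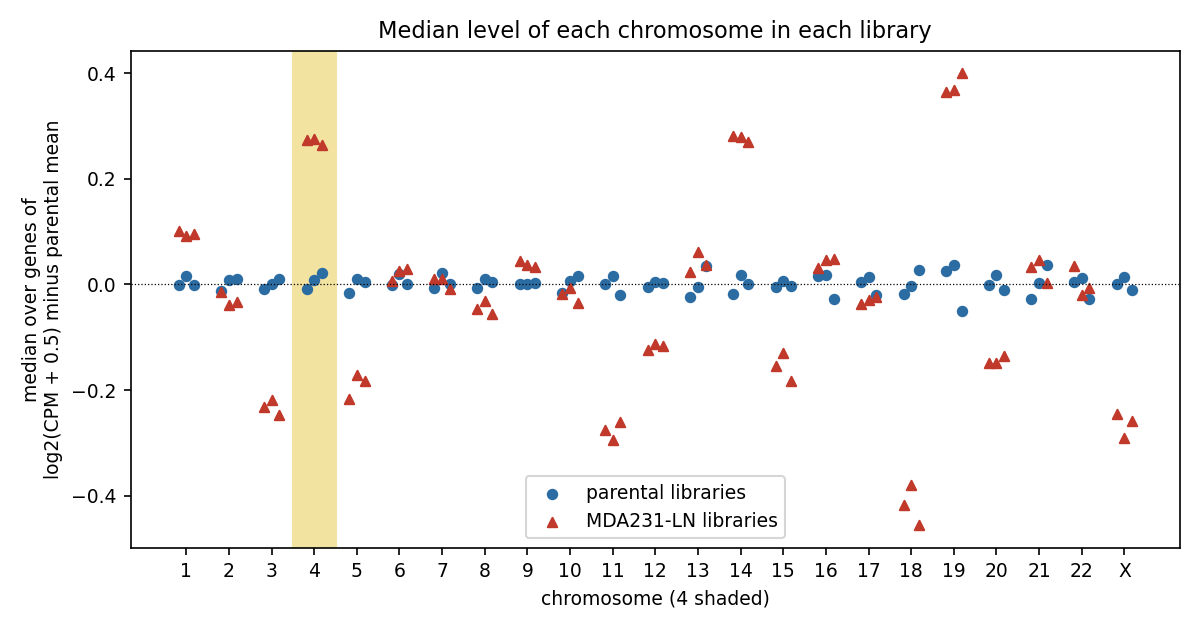
Median deviation from the parental mean on the log2(CPM + 0.5) scale (vertical axis) over genes with a mean CPM of at least 1, by chromosome (horizontal axis, 4 shaded), with circles for parental and triangles for MDA231-LN libraries. On chromosome 4 the 3 triangles lie between 0.26 and 0.28 and the 3 circles between -0.01 and 0.02, and the triangles of chromosome 19 lie higher.

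On the short arm, the windows from 0 to 50 Mb had medians of 0.30 (71 members), 0.33 (23), 0.45 (18), 0.21 (20) and 0.13 (23). The most counted member of the first window was NSD2, a histone methyltransferase, with 399, 382 and 408 CPM in the parental line against 431, 460 and 436 CPM. It rose by 0.16 ± 0.05 (log2, SE; edgeR adjusted p = 0.00968), but without MDA231-LN library 2 the adjusted p was 0.0771. From 10 to 20 Mb it was WDR1, which helps cofilin take actin filaments apart, at 663, 693 and 646 CPM against 785, 796 and 782. WDR1 rose 1.18-fold, without overlap. DHX15, an RNA helicase of splicing and the most counted member from 20 to 30 Mb, had 339 ± 5.0 CPM against 352 ± 4.34 (SD, n = 3) and did not pass. It thus stood below the median of its window, which was the highest of the chromosome with all 6 libraries.

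RPL9, a protein of the large ribosomal subunit in the window from 30 to 40 Mb, rose 1.43-fold from 256, 269 and 215 CPM to 331, 344 and 386. Its reads can be lost to processed copies elsewhere, since reads that align to more than 1 place were not counted. In the window from 40 to 50 Mb, which had the lowest median with all 6 libraries, the most counted member went the other way. LIMCH1, which binds actin and activates non-muscle myosin, had 309, 332 and 332 CPM in the parental line and 155, 160 and 153 in MDA231-LN. It fell by 1.05 ± 0.06 (log2, SE; edgeR adjusted p = 5.32e-15).

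On the long arm, the windows from 50 to 120 Mb had medians of 0.28 (24 members), 0.16 (6), 0.44 (43), 0.25 (42), 0.44 (15), 0.28 (32) and 0.33 (28). PAICS, an enzyme of purine synthesis, rose 1.16-fold from 446 ± 14.1 to 515 ± 8.53 CPM (SD, n = 3). SEPTIN11, a septin of the cytoskeleton, rose 1.33-fold from 312, 328 and 326 CPM to 428, 430 and 427. H2AZ1, a histone H2A variant, had 332, 343 and 284 CPM against 388, 341 and 374, so the lines overlapped. It rose by 0.20 ± 0.06 (log2, SE; edgeR adjusted p = 0.00816). Without parental library 3 the change was 0.12 with an adjusted p of 0.0809, and the adjusted p was 0.0687 without MDA231-LN library 1. YTHDC1, a reader of methylated RNA, HNRNPD, which binds AU-rich RNA, and UBE2D3, a ubiquitin-conjugating enzyme, had changes of 0.06, 0.12 and 0.02 and did not pass. ELOVL6, a fatty acid elongase, fell by 0.42 ± 0.06 (log2, SE) from 120, 123 and 115 CPM to 89.5, 89.6 and 89.5.

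From 120 to 190 Mb the medians were 0.13 (27 members), 0.36 (9), 0.19 (24), 0.32 (24), 0.16 (18), 0.34 (18) and 0.30 (32). ANXA5, the annexin that binds phosphatidylserine, rose 1.47-fold from 546, 587 and 532 CPM to 794, 841 and 819. This was well above the median of its window. NAA15, the auxiliary subunit of an N-terminal acetyltransferase, rose 1.28-fold from 164, 166 and 186 CPM to 218, 231 and 213. SMARCA5, the motor of ISWI chromatin remodellers, rose 1.16-fold from 147, 154 and 152 CPM to 178, 178 and 172. RPS3A, a small-subunit ribosomal protein with 68.2% of its exonic bases inside other genes, rose 1.43-fold, a value that is uncertain because shared and multiply aligned reads were not counted.

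In the remaining windows the most counted member had a weaker or opposite value, although the medians of these windows were above 0. CLCN3, an endosomal chloride transporter, had a change of 0.10 ± 0.06 (log2, SE) and did not pass. HMGB2, a chromatin protein of dividing cells, had 254, 265 and 221 CPM against 259, 279 and 278. It rose by 0.14 ± 0.06 (log2, SE; edgeR adjusted p = 0.0461) and lost the call without parental library 1 (adjusted p = 0.0607) or 3 (change 0.06, adjusted p = 0.344) or without MDA231-LN library 2 (0.177) or 3 (0.15). FAT1, a giant cadherin, fell by 0.40 ± 0.08 (log2, SE) from 299, 246 and 331 CPM to 232, 230 and 202. Of the 19 genes chosen as most counted in their window, 11 rose, 3 fell and 5 did not pass. Of all members 53.7% rose and 9.05% fell. With upper-quartile scaling, which raised the median of all genes tested to 0.13, 16 of the 19 rose and 3 fell.

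By role, 296 of the 358 genes on 11 lists of chromosome 4 genes were members. Every list had more members that rose than fell except the innate immune list, which had 3 of each here, 6 against 3 with upper-quartile scaling and 2 against 3 with DESeq2 and with limma-voom, and the medians below stand beside 0.27 for all members and 0.02 for all genes tested. The counts of each list stand beside 53.7% higher and 9.05% lower of all members, and 31.6% and 31.2% of all genes tested. Several lists lay near the shares of all members, and no list was tested against them. The lists were drawn up with earlier results of these data known. Genes named from here on that are neither the most abundant of a list nor the most changed of the chromosome were chosen after their values were seen.

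**Figure D4:**
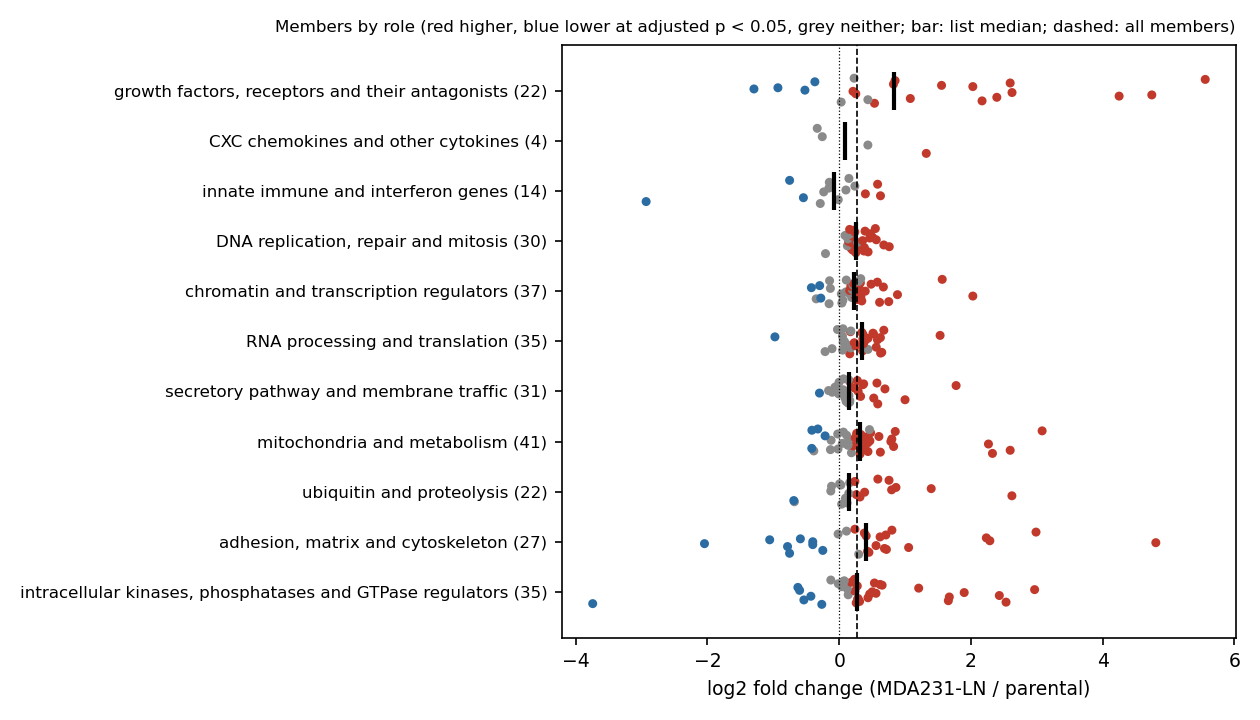
Log2 fold change (horizontal axis) of each member by role list (vertical axis, number of members in brackets), with black bars for list medians and a dashed line for the median of all members. The list of replication, repair and mitosis lies in a narrow band with a median of 0.25, and the growth factor list spreads from -1.29 to 5.56.

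Most genes of DNA replication, repair and mitosis rose a little. Of 30 members 23 rose, 0 fell and 7 did not pass, beside the 53.7% higher of all members, and the changes ran from -0.21 to 0.76 with a median of 0.25. CCNA2, the cyclin of S phase and mitotic entry, rose 1.35-fold from 176, 193 and 181 CPM to 244, 249 and 252. MAD2L1, a protein of the spindle checkpoint, rose 1.48-fold from 96.5, 113 and 95.8 CPM to 148, 152 and 151. NCAPG, a condensin subunit, rose 1.38-fold from 157, 172 and 181 CPM to 242, 241 and 222. In all 3 genes the lines were apart. CCNI, an atypical cyclin, rose 1.15-fold, and PLK4, the kinase of centriole duplication, had 70.2 ± 3.86 against 77.9 ± 0.227 CPM (SD, n = 3) and did not pass.

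Chromatin and transcription regulators had 37 members, of which 19 rose, 3 fell and 15 did not pass, with a median of 0.22. RBPJ, the DNA-binding partner of Notch, rose 1.13-fold from 238, 242 and 252 CPM to 270, 281 and 277. POLR2B, a large subunit of RNA polymerase II, rose 1.24-fold from 204, 222 and 220 CPM to 266, 263 and 272. LEF1, a transcription factor of Wnt signalling, was the outlying member at 3.90, 4.94 and 5.78 CPM against 16.6, 22.9 and 20.6, a 4.08-fold rise.

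RNA processing and translation had 35 members, of which 21 rose, 1 fell and 13 did not pass, with a median of 0.34. HNRNPDL, an RNA-binding protein related to HNRNPD, rose 1.19-fold from 298, 328 and 296 CPM to 354, 365 and 374. EIF4E, the protein that binds the mRNA cap, rose by 0.35 on the log2 scale, and the ribosomal protein gene RPL34 rose by 0.36. NSUN7, an RNA methyltransferase family member, fell by 0.98.

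Mitochondrial and metabolic genes had 41 members, of which 24 rose, 4 fell and 13 did not pass, with a median of 0.32. LETM1, an ion exchanger of the inner mitochondrial membrane, rose 1.29-fold from 116, 108 and 118 CPM to 146, 147 and 149. ADH5, which detoxifies formaldehyde with glutathione, rose 1.35-fold from 98.2, 97.0 and 98.1 CPM to 127, 145 and 126. OCIAD1, with 40.1% of its exonic bases inside other genes, rose 1.32-fold. The strongest rises in this list were those of SLC4A4, a bicarbonate cotransporter, by 3.08 on the log2 scale, CDS1, an enzyme of phosphoinositide synthesis, by 2.60, and ABCG2, a drug efflux pump, by 2.33. SLC7A11, the cystine transporter, fell by 0.41.

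Secretory and membrane traffic genes had 31 members, of which 13 rose, 1 fell and 17 did not pass, with a median of 0.15. SPCS3, a subunit of the signal peptidase, rose 1.28-fold from 119 ± 7.71 to 152 ± 3.90 CPM (SD, n = 3). TMEM33, a protein of the endoplasmic reticulum, rose by 0.16 ± 0.06 (log2, SE; edgeR adjusted p = 0.0271), but lost the call without parental library 1 (adjusted p = 0.127) or 2 (0.0867) or MDA231-LN library 1 (0.108) or 2 (0.116). SEC31A, a coat protein of vesicles leaving the endoplasmic reticulum, had a change of -0.04 ± 0.05 (log2, SE) and did not pass, and with upper-quartile scaling its change was 0.07.

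Ubiquitin and proteolysis genes had 22 members, of which 10 rose, 1 fell and 11 did not pass, with a median of 0.15. The 3 most counted, UBE2D3, UBE2K and OTUD4, had changes of 0.02, 0.01 and -0.13 and did not pass. OTUD4 passed without parental library 2 (change -0.19, edgeR adjusted p = 0.00929). UBE2D3 passed with upper-quartile scaling (change 0.14, edgeR adjusted p = 0.0284). USP46, a deubiquitinase, rose 1.69-fold from 28.4 ± 1.85 to 47.9 ± 1.97 CPM (SD, n = 3).

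Growth factors, receptors and their antagonists were spread more widely, with a median of 0.84. Of 22 members 15 rose, 4 fell and 3 did not pass. A rise of at least 2-fold was called for 10, beside 14.7% of all members and 13% of all genes tested. EREG, the EGF receptor ligand epiregulin (ENSG00000124882, chr4:74365145-74388749), was at 1.52, 2.22 and 1.28 CPM in the parental line and 45.5, 44.2 and 44.0 in MDA231-LN. It rose 26.8-fold, by 4.75 ± 0.15 (log2, SE; edgeR adjusted p = 1.14e-19), and its promoter run is printed above. Its neighbour AREG, the ligand amphiregulin, rose 1.45-fold from 9.99, 9.95 and 8.08 CPM to 13.8, 13.1 and 13.7. The next ligand gene, BTC (betacellulin), had 0.792, 1.77 and 2.19 CPM against 1.79, 2.50 and 2.21, overlapped between the lines and did not pass.

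EGF itself, elsewhere on the long arm, rose 5.25-fold from 1.34, 1.39 and 0.589 CPM to 6.45, 4.10 and 6.68. Among receptors, UNC5C, a netrin receptor, rose 47.1-fold from 0.122, 0.190 and 0.161 CPM to 8.25, 7.37 and 7.55. EPHA5, an ephrin receptor, rose 19-fold from 0.975, 0.507 and 1.18 CPM to 17.0, 17.7 and 17.2. In each of these genes every MDA231-LN library lay above every parental one. FGFR3, a fibroblast growth factor receptor, rose 6.16-fold from 1.4, 0.570 and 1.55 CPM to 7.58, 8.15 and 6.42, and BMPR1B, a bone morphogenetic protein receptor, rose 4.50-fold from 5.27 ± 0.291 to 23.7 ± 1.01 CPM (SD, n = 3).

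Secreted regulators of this list went both ways. SLIT2, the ligand of Robo receptors, rose 6.05-fold from 9.02, 8.43 and 10.5 CPM to 56.8, 58.4 and 54.8. PDGFC, a platelet-derived growth factor, rose 1.77-fold from 79.3, 95 and 92.3 CPM to 158, 164 and 150. IGFBP7, a secreted protein that binds insulin-like growth factors, was at 194, 200 and 188 CPM in the parental line and 80.7, 78.3 and 78.1 in MDA231-LN. The level fell to be 2.45-fold lower. Other genes cover 46.4% of the exonic bases of IGFBP7. FGFRL1, a receptor without a kinase domain, rose 1.16-fold (edgeR adjusted p = 0.0217), a call lost without parental library 3 (change 0.13, adjusted p = 0.143) or MDA231-LN library 1 (0.15). KDR, the main endothelial VEGF receptor, fell by 0.93 ± 0.35 (log2, SE) at 2.76 ± 0.847 against 1.46 ± 0.567 CPM (SD, n = 3), and the lines overlapped.

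Few of the neighbouring chemokine genes reached the minimum level. Of 15 listed CXC chemokines and other cytokines 4 were members, of which 1 rose, 0 fell and 3 did not pass. CXCL1 rose 2.50-fold from 0.853, 0.507 and 1.71 CPM to 2.36, 3.05 and 2.47, a rise of 3.79-fold without parental library 3. CXCL8 had 7.94 ± 1.00 against 6.66 ± 0.675 CPM (SD, n = 3) and IL15 had 3.27 ± 0.910 against 2.62 ± 0.843 (SD, n = 3), and both overlapped. CXCL1 and CXCL2 are close copies, and reads aligning to both would not have been counted, so their values are uncertain.

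The innate immune and interferon genes were the exception among the lists, with 3 of 14 members raised, 3 lowered, 8 not passed and a median of -0.08, which became 0.03 with upper-quartile scaling. NFKB1, a subunit of NF-kappa-B, had 71.4, 71.4 and 71.0 CPM against 73.2, 75.2 and 81.0 and did not pass. TNIP2 and PLAC8, the next most counted, had changes of 0.15 and -0.16 and did not pass. BST1, an ectoenzyme that consumes NAD, fell by 2.93 ± 0.22 (log2, SE) from 14.1, 15 and 13.1 CPM to 2.71, 1.66 and 1.13. TLR3, a receptor for double-stranded RNA, fell by 0.75 ± 0.21 (log2, SE), whereas the interferon-induced ligase gene HERC5 rose by 0.63.

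Adhesion, matrix and cytoskeleton genes had 27 members, of which 16 rose, 8 fell and 3 did not pass, with a median of 0.41. SORBS2, an adaptor of actin and adhesion sites, rose 7.93-fold from 5.12, 5.64 and 7.07 CPM to 48.5, 44.9 and 49.0. PDLIM5, a scaffold at the actin cytoskeleton, rose 1.54-fold from 124, 132 and 142 CPM to 206, 207 and 199. FAT4, a giant cadherin, was 4.13-fold lower at 32.0, 24.0 and 32.2 CPM against 7.79, 6.60 and 6.99. The lines were apart in all 3 genes.

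Kinases, phosphatases and GTPase regulators had 35 members, of which 22 rose, 6 fell and 7 did not pass, with a median of 0.27. GAK, a kinase of clathrin uncoating, rose 1.22-fold from 96.5, 82.9 and 92.7 CPM to 111, 109 and 112. WWC2, a regulator of the Hippo pathway, rose 1.17-fold from 84.8 ± 4.87 to 99.5 ± 2.04 CPM (SD, n = 3). PPP3CA, the catalytic subunit of calcineurin, had 118 ± 7.03 against 129 ± 5.36 CPM (SD, n = 3) and did not pass. ARAP2, a GTPase-activating protein of Arf6, fell the most of all members, as given below.

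Beside the shift shared along the chromosome, single genes stood far above it. The 42 members raised at least 4-fold lay in 16 of the 19 windows. For 12 of them (28.6%) the member just before or just after was also raised at least 4-fold, beside 70 of the other 455 members (15.4%). Their 84 neighbours (the member before and the member after each) had a median of 0.35, near that of the chromosome, and 64 of the 84 lay above 0. After the median of the other members of its window was subtracted, 61 of the 73 members raised at least 2-fold were still raised at least 2-fold. Of all members, 328 (66%) lay within 0.5 of the median of their window on the log2 scale.

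The strongly raised members differed from those raised a little in type of gene, level and length, which is a description without a test. Of the 42, 31 were protein coding, against 183 of the 194 raised less than 2-fold. Their median level over all libraries was 3.98 CPM, against 39.8 CPM. That level includes the parental libraries, so a gene near 0 there has a low mean, and the contrast is in part fixed by the selection. Among genes of other chromosomes, 794 of the 1333 raised at least 2-fold also had a mean from 1 to 5 CPM. Type of gene and length were not compared with other chromosomes. Their median gene length was 135 kb, against 49.9 kb for the 194 and 57.4 kb for the 185 that did not pass, and counts covered whole gene bodies. Protein-coding members as a whole had a median change of 0.25 and the other 60 members 0.57.

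For 7 members there was no count in any parental library (0 of 3 libraries), and their rise is a lower bound against a floor of 3 counts over the 3 parental libraries, 0.059 CPM. F11-AS1, a long non-coding RNA antisense to the clotting factor gene F11 (ENSG00000251165, chr4:186286094-186500997), was at 12.9, 11.5 and 9.87 CPM in the MDA231-LN libraries, at least 193-fold higher. Other genes cover 68.8% of its exonic bases, and reads touching several genes were left out. Its level therefore rests on the stretches it does not share, where the counts ignore the strand, and is uncertain. NAA11, a relative of the catalytic subunit of an N-terminal acetyltransferase (ENSG00000156269, chr4:79225694-79326061), was at 6.92, 7.10 and 6.63 CPM, at least 117-fold higher. STK32B, a serine/threonine kinase (ENSG00000152953, chr4:5051480-5500994), was at 2.05, 1.61 and 2.42 CPM, at least 34.5-fold higher.

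The other 4 with no parental count were the long non-coding RNA genes LINC02428, LINC01098, LINC00989 and LINC02492. LINC02428 was at 4.30, 5.32 and 6.22 CPM, at least 89.5-fold higher, and LINC01098 at 4.05, 3.66 and 4.32 CPM, at least 68.1-fold higher. LINC00989, the member next to NAA11, was at 3.33, 1.94 and 3.60 CPM, at least 50.6-fold higher. LINC02492 was at 3.18, 2.33 and 2.26 CPM, at least 44.0-fold higher. All 7 were at 1.61 CPM or more in every MDA231-LN library, and each passed at an adjusted p of 7.26e-08 or less (edgeR). With no parental count they met the minimum level only through MDA231-LN, so these p-values are no separate support for the rise.

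The long non-coding RNA gene ENSG00000249675, which has no conventional symbol and was named after its values were seen, had 1 count in the 3 parental libraries and 15.1, 16.9 and 16.4 CPM in MDA231-LN. The ratio was 819.9, with an exact 95% interval from 147 to 32420 that covers counting error only. Among members with more than 3 counts in each line, SORCS2 rose most. SORCS2, a sorting receptor of the VPS10 family (ENSG00000184985, chr4:7192538-7742836), had 0.122, 0.0634 and 0.107 CPM in the parental line and 17.8, 20.5 and 18.5 in MDA231-LN. It rose by 7.49 ± 0.28 (log2, SE; edgeR adjusted p = 7.07e-18), which is 180-fold. SORCS2 too met the minimum level only through MDA231-LN. The members on either side of it, GRPEL1 and AFAP1-AS1, both changed by 0.21. PARM1, a mucin-like membrane protein, rose 28.2-fold from 1.10, 0.761 and 0.803 CPM to 26.8, 25.6 and 23.1. FHDC1, a formin (ENSG00000137460, chr4:152936323-152979671), rose 28.0-fold from 0.427, 0.380 and 0.589 CPM to 13.2, 12.8 and 14.1. Its neighbours ARFIP1 and TMEM131L changed by 0.16 and -0.17, so the rise of FHDC1 stood alone.

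**Figure D5:**
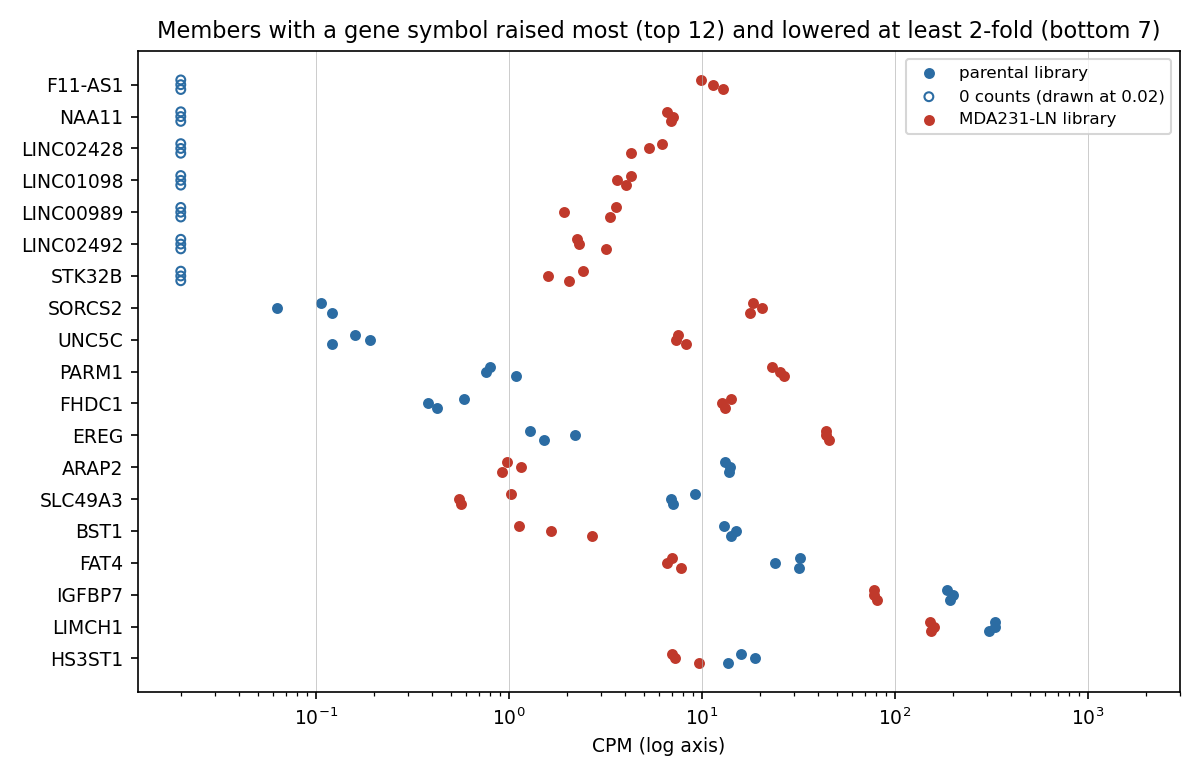
CPM on a log axis (horizontal) of the 12 members with a conventional symbol and the largest rise and the 7 members lowered at least 2-fold (vertical axis), with 1 point per library, and open circles for libraries with 0 counts drawn at 0.02. In all 19 genes the points of the lines are apart.

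Members that fell strongly were few and lay in windows whose medians were above 0. For the 4 lowered at least 4-fold, the members just before and just after went both ways. These changed by -0.03 and -0.07 beside FAT4 and by -0.62 and 0.20 beside SLC49A3. They changed by 0.11 and 0.69 beside BST1 and by -0.01 and 1.87 beside ARAP2. ARAP2 (ENSG00000047365, chr4:35948221-36244514) was at 13.9, 14.1 and 13.2 CPM in the parental line and 0.922, 1.16 and 0.977 in MDA231-LN. It fell by 3.74 ± 0.21 (log2, SE; edgeR adjusted p = 1.67e-14), and the median of the other members of its window was 0.24. SLC49A3, a membrane transporter family member, was 10.8-fold lower at 7.07, 6.97 and 9.26 CPM against 0.564, 0.554 and 1.03. HS3ST1, which sulfates heparan sulfate, was 2.03-fold lower at 13.7, 18.9 and 15.9 CPM against 9.63, 7.32 and 6.99. With BST1, FAT4, IGFBP7 and LIMCH1 these were the 7 members lowered at least 2-fold.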

How the data were processed

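RNA was measured in 6 libraries, 3 of each line. The authors deposited unnormalized counts for each gene. Per the file headers, featureCounts 2.0.1 was run on Ensembl release 105 over whole gene bodies with introns, the strand was ignored, and reads touching several genes or aligning to several places were left out. Per the submitters' processing notes, reads were aligned to GRCh38 with STAR. Antisense, overlapping and multi-copy genes are therefore uncertain.

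Groups came from the cell line labels. All 61541 rows entered 1 fit (R 4.3.3, edgeR 4.0.16, quasi-likelihood test, TMM scaling, filterByExpr, 14176 genes tested, Benjamini-Hochberg over them), and chromosome 4 rows were then read. The threshold was an adjusted p of 0.05. CPM values use TMM-scaled library sizes, errors of CPM are SD and of log2 changes SE. The common biological coefficient of variation was 0.0691. Biotypes and exon overlap came from GENCODE 29, with 493 of 497 members matched. Floors are 3 counts over 3 libraries and cover counting error alone, because amplified copies of a molecule cannot be recognised. Alternatives were other scalings, filters, tools (DESeq2 1.42.0, limma 3.58.1), a replicate block and leaving out each library.

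Members and lists were chosen with earlier results of these data known. Named genes were the 12 most raised with a conventional symbol and the lowered members past 2-fold without overlap, the most counted member of each window, the 3 most counted of each list and those nearest the minimum. Values of some genes on the lists are not reported here.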

Additional observations from a re-analysis of the deposited data

How the results depend on the processing

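The median of the members was 0.27 and stayed above 0 under every alternative run. It was 0.39 with upper-quartile scaling, which moved the median of all genes tested from 0.02 to 0.13, 0.24 among members with a mean of at least 5 CPM, 0.21 without members changed at least 2-fold, and 0.60 as a mean in place of a median. Among members with a mean of at least 5 CPM, 28 of 384 rose at least 2-fold, beside 73 of 497. Leaving out 1 library at a time gave medians from 0.26 to 0.28, 234 to 255 members higher, 41 to 47 lower, 69 to 76 raised and 7 to 8 lowered at least 2-fold. Replicate numbers did not pair the libraries (same-number correlations of -0.00394, 0.00241 and -0.0526), and with the replicate block the median was 0.28, with 259 members higher and 45 lower. Window medians were recomputed 285 times and all 285 were above 0, from 0.01 to 0.56. For the 60 named genes, 804 of 840 refits kept direction and call. A call was lost in 16 refits and gained in 15. HNRNPD, TNIP2, PLAC8 and OTUD4 gained one without parental library 2, PPP3CA without parental library 3 and HNRNPD without MDA231-LN library 1. HNRNPD also gained one with the filter of 1 CPM in 3 libraries. The other gains came with upper-quartile scaling. A change of sign was seen for SEC31A with upper-quartile scaling (0.0749), for UBE2K when parental library 1 or 3 or MDA231-LN library 3 was left out (from -0.0259 to 0.0359 over the 6 libraries left out in turn), and for UBE2D3 without parental library 3 (from -0.0312 to 0.0654). None of these passed, and the cause was not tested. A floor of 0.059 CPM limits what can be said of genes with no parental count.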
